A study of Mus musculus with 6 samples.

Results

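The genes described here are those of the ATF4 response, together with the cytosolic aminoacyl-tRNA synthetases that belong to it. They were chosen by name from a list of 32 genes, taking every non-control probe whose gene name in the array files was on the list. Of the 32 listed genes, 31 were found under their own name, with 57 probes among the 41174 probes of the array. All 31 passed the filter on dim probes and were tested among 16702 genes, each with the tested probe well above background on all 6 arrays. The remaining one, Ppp1r15a, appears in the files only under its older name Myd116, and its value is given apart from all counts.

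The samples were primary cultures of C4HD, a ductal mammary tumour of female BALB/c mice that arose under the progestin medroxyprogesterone acetate (MPA) and was passed on by transplantation into mice carrying a 40 mg MPA depot. In 3 cultures a precursor of miR-16 (pre-miR-16) had been transfected at 30 nM for 48 h, and in 3 cultures a precursor that yields no known mammalian microRNA (pre-miR-Control) at the same dose and for the same time. The tumour line and the MPA treatment of its hosts were thus common to both groups, and both were plated from a fraction enriched for epithelial cells by repeated sedimentation. Total RNA was labelled with Cy3 and hybridised to Agilent mouse expression arrays, 1 array per replicate, each taken here as a separate culture. The comparison asks how the transcript levels of these genes stood in cultures given miR-16 relative to those given the control precursor.

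ATF4 is a transcription factor of the integrated stress response. When kinases that sense amino acid shortage, endoplasmic reticulum stress, double-stranded RNA or haem shortage phosphorylate the initiation factor eIF2, general translation falls while the Atf4 message is translated more. ATF4, paired with other bZIP factors such as C/EBP proteins, then raises genes for amino acid synthesis and import, one-carbon metabolism, tRNA charging and growth arrest. Since ATF4 is controlled largely at translation and protein stability, arrays report its messenger and its target messengers but not its activity.

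The mature microRNA delivered by pre-miR-16 is shown first, since it is the agent that distinguishes the cultures. It is taken from RefSeq (GRCm38.p6), where the same sequence stands at chr14:61631936-61631957 on the minus strand and chr3:69009918-69009939 on the plus strand, and capitals mark the seed, bases 2 to 8.
miR-16-5p: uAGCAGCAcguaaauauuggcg

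ATF4 heterodimers are known to bind a composite C/EBP-ATF element, so the promoters of the listed genes were searched for the 8 bases TGATGNAA on both strands, from 250 bases before to 50 bases after the start, in the RefSeq promoter table of GRCm38.p6. A promoter was found for 26 of the 31 genes, and 10 of these 26 (38.5%) held the motif: Trib3, Chac1, Vldlr, Asns, Pycr1, Aars, Gars, Iars, Tars and Yars. By the same search 2.89% of the 10263 tested genes with a promoter in the table held it, as did 4.51% of all 27025 genes of the table. It stood in 5 of 8 synthetase promoters, 2 of 8 promoters of amino acid and one-carbon synthesis, 3 of 5 of the stress effectors and 0 of 5 of the transcription factors. The match is a description of letters in this window and marks neither a bound site nor a cause. Of the 17 promoters of genes called higher in pre-miR-16 cultures 7 (41.2%) held it, and of the 9 promoters of genes not called 3 (33.3%) did. The promoters below are shown because 3 belong to genes that rose, 2 of them synthetases, and 1 to a known ATF4 target that did not pass the test. Capitals mark the motif on either strand, and each promoter is read along its gene's strand.
Asns, chr6:7693160-7693459, minus strand: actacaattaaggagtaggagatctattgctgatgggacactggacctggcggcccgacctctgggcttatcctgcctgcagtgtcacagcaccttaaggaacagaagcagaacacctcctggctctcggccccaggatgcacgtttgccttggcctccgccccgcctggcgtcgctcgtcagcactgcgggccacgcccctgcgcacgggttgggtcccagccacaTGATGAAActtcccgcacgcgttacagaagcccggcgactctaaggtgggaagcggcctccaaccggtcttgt
Gars, chr6:55037751-55038050, plus strand: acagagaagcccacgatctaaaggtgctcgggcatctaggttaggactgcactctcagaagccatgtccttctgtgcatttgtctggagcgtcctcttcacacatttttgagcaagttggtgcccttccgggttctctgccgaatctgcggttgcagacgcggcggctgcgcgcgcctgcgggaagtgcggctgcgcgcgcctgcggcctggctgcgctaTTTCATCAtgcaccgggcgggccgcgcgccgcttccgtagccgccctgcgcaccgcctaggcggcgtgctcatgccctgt
Aars, chr8:111033592-111033891, plus strand: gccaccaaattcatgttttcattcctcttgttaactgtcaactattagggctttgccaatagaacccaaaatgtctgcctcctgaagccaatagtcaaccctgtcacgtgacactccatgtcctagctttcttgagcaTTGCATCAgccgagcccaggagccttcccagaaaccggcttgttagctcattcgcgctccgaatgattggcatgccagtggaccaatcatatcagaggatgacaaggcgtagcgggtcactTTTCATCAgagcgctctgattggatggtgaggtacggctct
Trib3, chr2:152344011-152344310, minus strand: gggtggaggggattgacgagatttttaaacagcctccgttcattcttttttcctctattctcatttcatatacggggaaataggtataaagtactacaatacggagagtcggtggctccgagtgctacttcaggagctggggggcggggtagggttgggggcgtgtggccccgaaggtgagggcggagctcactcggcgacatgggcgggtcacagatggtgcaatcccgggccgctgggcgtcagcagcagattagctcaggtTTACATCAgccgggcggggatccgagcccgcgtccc
The leftmost base of the motif was at position -23 in Asns, with the first base of the gene as 1 and no 0, at -30 in Gars and at 15 in Trib3. Aars held it at -112 and again at 10.

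Levels are the log2 of the processed signal after the 75th percentile of that array was subtracted, given as pre-miR-16 replicates 1 to 3 against pre-miR-Control replicates 1 to 3, or as mean ± SD with n = 3 per group. Levels of different genes come from different probes and are not compared with each other. Changes are differences in log2 level with their SE, pre-miR-16 minus pre-miR-Control, at the gene's brightest probe, from limma with Benjamini-Hochberg adjustment over all 16702 genes, and a gene was called at an adjusted p under 0.05. An exact permutation test of a single gene with 3 arrays against 3 cannot go below a two-sided p of 0.10, so no such test was used. That the replicates are separate cultures is assumed from the replicate numbers in their titles, which do not state it.

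With this scaling 21 of the 31 genes (67.7%) were higher in pre-miR-16 cultures and 0 were lower, against 15.9% of all genes tested called higher, 33.2% called lower and 49.1% called in either direction. The count of falls was 0 of 31 in limma at an unadjusted p under 0.05 too, where 26 were higher. The pre-miR-16 values lay above all control values for 27 of the 31 genes (87.1%), against 18.9% of all genes, and below them for 0, against 42.5% of all genes. Of the 54 kept probes of the 31 genes 34 were called higher and 2 lower, against 15.2% and 31.4% of all 23827 kept probes. The median change of the 31 genes was 0.56 and that of all genes -0.20. Within slide 1 the median of the 31 was 0.54 and within slide 2 it was 0.58, and with the slide as a block 14 genes were called higher, the calls of Cebpb, Eif4ebp1, Aldh18a1, Shmt2, Cars, Iars and Nars being lost (adjusted p 0.0615 to 0.118). With that block 2095 of all 16702 genes were called higher, against 2658 without it. These shares rest on a list assembled with results of these data in view and are not a test. The 10 genes not called were Atf4, Cebpg, Trib3, Chac1, Phgdh, Psph, Lars, Mars, Sars and Tars, of which Cebpg alone had a negative change.

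Markers of other cells moved with these genes. The summed linear signal of 12 leukocyte markers, in multiples of the array's 75th percentile, was 215 to 261 in pre-miR-16 and 16.2 to 22.0 in pre-miR-Control cultures. For 12 fibroblast and matrix markers it was 355 to 481 in pre-miR-16 and 40.9 to 47.6 in pre-miR-Control cultures. Such sums weigh the brightest markers most. In the leukocyte sum Lyz2 had a mean log2 level of 7.60 in pre-miR-16 and 2.74 in pre-miR-Control cultures, and Cd14, the next in pre-miR-16 cultures, 4.69 and 3.21. Of the 12 leukocyte markers 10 (83.3%) were called higher, and of the 12 fibroblast markers all 12, against 15.9% of all genes. The 2 leukocyte markers not called had negative changes: Csf1r with -0.52 ± 0.26 (adjusted p = 0.142) and Cd3e with -0.08 ± 0.13 (adjusted p = 0.633). Some leukocyte markers passed the filter only through the pre-miR-16 cultures, and with all arrays required to be well above background 5 of 7 were called, at a median of 2.21. The fibroblast marker Fap passed in the same way, and with that requirement 11 of 11 fibroblast markers were called, at a median of 3.94. Of all 15054 genes then tested 2004 were called higher. Under normexp background correction with the 75th percentile 11 of the 12 fibroblast markers were called. The sum of 11 luminal markers was 598 to 630 in pre-miR-16 and 1003 to 1140 in pre-miR-Control cultures. Of these 11 markers 8 were called lower and 0 higher, against 33.2% and 15.9% of all genes. With spike-in scaling 2 luminal markers were called lower, at a median of -0.17, and with the slide as a block 5. Of all 16702 genes 1029 and 3940 were called lower in these settings, against 5544 in the main fit. The leukocyte antigen Ptprc did not stand well above background in any pre-miR-Control culture. The luminal marker Muc1 stood well above background in only 2 pre-miR-16 cultures and passed the filter through the pre-miR-Control cultures. With all arrays required to be well above background, 8 of 10 luminal markers were called lower, at a median of -0.66. Of 9 proliferation markers 5 (55.6%) were called higher (Rrm2, Ccnb1, Mki67, Top2a and Bub1), against 15.9% of all genes. Their count was 8 without pre-miR-16 replicate 2, where 3335 of all 16702 genes were called higher, against 2658 in the main fit. The count of proliferation markers was 3 without any one of pre-miR-16 replicates 1 and 3 and pre-miR-Control replicates 2 and 3. There 2109 to 2258 of all genes were called higher. Fewer cells of a type and less RNA per cell cannot be told apart in such bulk samples, and the part of these markers in the results for the ATF4 genes was not tested.

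**Figure D1:**
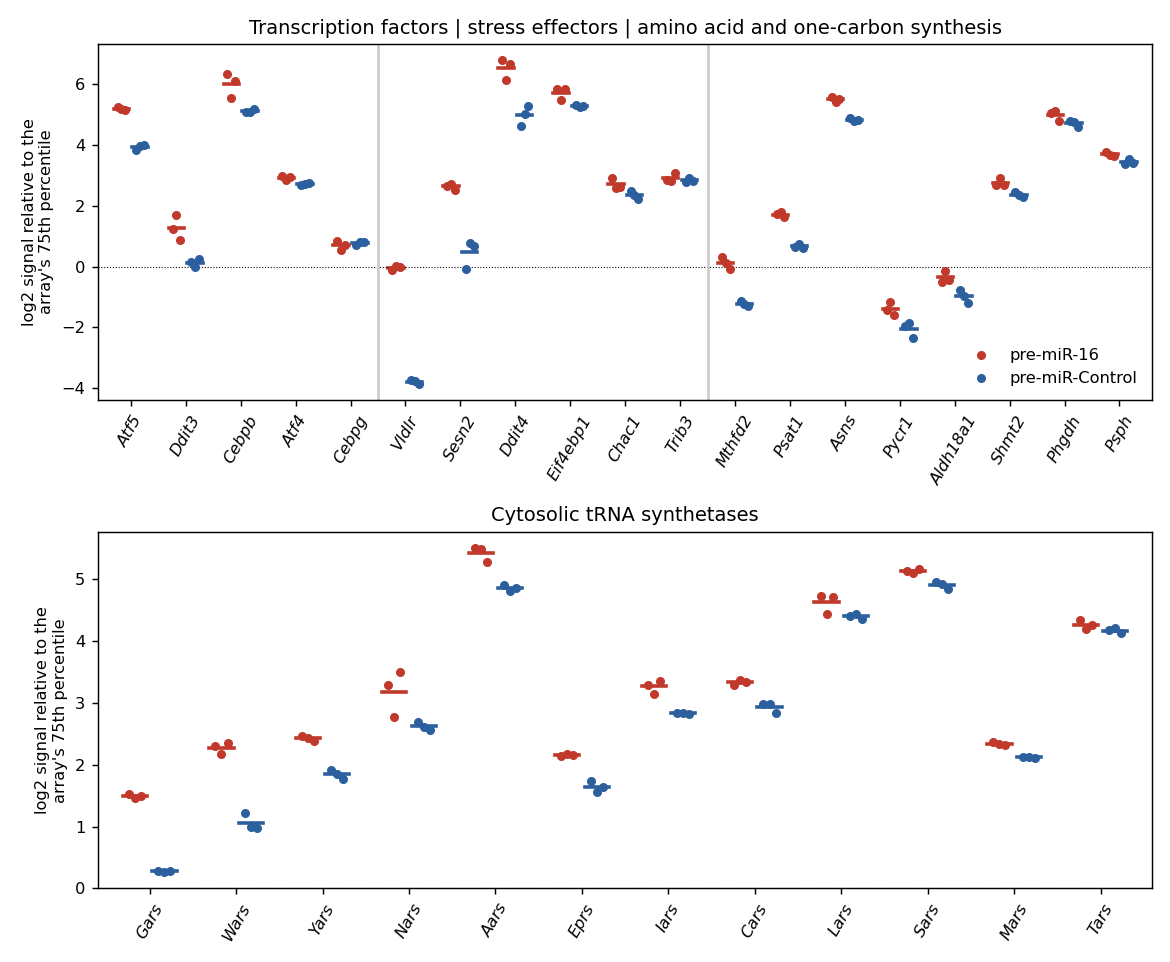
Log2 signal relative to the array's 75th percentile for the 31 genes on each array, pre-miR-16 in red on the left and pre-miR-Control in blue on the right, with bars at the group means (n = 3 each). The groups are apart for 27 genes, widest for Vldlr, and overlap for Cebpg, Trib3, Phgdh and Tars.

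The messenger of the factor itself did not pass the test. Atf4 had 2.98, 2.86 and 2.95 in pre-miR-16 cultures, against 2.68, 2.72 and 2.75 in pre-miR-Control cultures. The groups did not overlap, but the change of 0.22 ± 0.08 did not pass the test (adjusted p = 0.077), and 9 of 22 other settings called it. Its 95% interval ran from 0.01 to 0.42.

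Of the 5 transcription factors, 3 were higher, against 15.9% of all genes. Atf5, a related factor whose translation is also released by eIF2 phosphorylation, had 5.27, 5.19 and 5.16 in pre-miR-16 cultures, against 3.84, 3.99 and 4.02 in pre-miR-Control cultures, a change of 1.26 ± 0.09 (adjusted p = 0.000177). All 3 pre-miR-16 cultures stood more than the whole spread of the controls above them. Ddit3, which encodes the pro-apoptotic factor CHOP, had 1.25, 1.71 and 0.86 in pre-miR-16 cultures, against 0.16, -0.03 and 0.24 in pre-miR-Control cultures, a change of 1.15 ± 0.22 (adjusted p = 0.00689). Here pre-miR-16 replicate 2 was the highest culture. Cebpb, a C/EBP factor and dimer partner of ATF4, had 6.34, 5.56 and 6.13 in pre-miR-16 cultures, against 5.09, 5.10 and 5.19 in pre-miR-Control cultures, a change of 0.88 ± 0.20 (adjusted p = 0.0141), with replicate 2 the lowest of the pre-miR-16 cultures. With the slide as a block the call of Cebpb was lost (adjusted p = 0.0639).

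Cebpg, another dimer partner, averaged 0.71 ± 0.15 in pre-miR-16 and 0.79 ± 0.06 in pre-miR-Control cultures, and the groups overlapped. Its change was -0.07 ± 0.11 (adjusted p = 0.598, 95% interval -0.34 to 0.19). The 3 Cebpg probes disagreed: a second gave 0.42 ± 0.21 (adjusted p = 0.143 over all kept probes), and the dimmest gave -0.86 ± 0.13 and was called lower (adjusted p = 0.0032). No single direction can therefore be given for Cebpg.

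Among the 6 stress effectors 4 were higher, against 15.9% of all genes, and this group held the largest change of the 31 genes. Vldlr, the very low density lipoprotein receptor, had -0.11, 0.03 and -0.03 in pre-miR-16 cultures, against -3.74, -3.78 and -3.87 in pre-miR-Control cultures. The groups stood far apart, with a change of 3.76 ± 0.09, or 13.6-fold (adjusted p = 1.14e-05). Under normexp background correction its change was 2.67 and still called. A second, dimmer Vldlr probe was well above background on 3 pre-miR-16 arrays and 1 pre-miR-Control array, passed the filter only through the pre-miR-16 cultures, and gives no further value.

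Ddit4 encodes REDD1 and Sesn2 encodes sestrin 2, and both are known to restrain the growth kinase mTORC1. Ddit4 had 6.80, 6.13 and 6.68 in pre-miR-16 cultures, against 4.63, 5.02 and 5.29 in pre-miR-Control cultures, a change of 1.56 ± 0.24 (adjusted p = 0.00316). The lowest pre-miR-16 culture, replicate 2, still exceeded the highest control. Within slide 1 the difference was 2.17 and within slide 2 it was 0.97.

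Sesn2 had 2.66, 2.73 and 2.53 in pre-miR-16 cultures, against -0.07, 0.79 and 0.67 in pre-miR-Control cultures, a change of 2.17 ± 0.23 (adjusted p = 0.000834). That value comes from a probe annotated to a GenBank cDNA at chr4:131870492-131870551 (mm7, minus strand). The probe annotated to the RefSeq transcript, at chr4:131871376-131871435 and 824 bases away, read 1.16, 1.61 and 0.80 in pre-miR-16 cultures, against 2.10, 1.73 and 1.74 in pre-miR-Control cultures. Its groups did not overlap either, and its change was -0.66 ± 0.22 (adjusted p = 0.0512 over all kept probes). The GenBank probe averaged 2.64 in pre-miR-16 and 0.46 in pre-miR-Control cultures, and the RefSeq probe 1.19 and 1.86. The GenBank probe was thus the brighter only through the pre-miR-16 cultures. The 2 Sesn2 probes ran in opposite directions, so no single direction can be given for Sesn2. It is counted as higher by the rule of the brightest probe, and the mean of both probes gave 0.76, still called. Which transcripts each probe reads was not analysed here, and no exon or UTR is given because no mm7 annotation was used.

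Eif4ebp1, whose product 4E-BP1 represses cap-dependent translation, averaged 5.72 ± 0.21 in pre-miR-16 and 5.28 ± 0.04 in pre-miR-Control cultures, a change of 0.44 ± 0.13 (adjusted p = 0.0284). Its call was lost on leaving out any one of 5 arrays, all but pre-miR-16 replicate 2 (adjusted p up to 0.0928). A second Eif4ebp1 probe had overlapping groups and gave 0.37 ± 0.20, not called (adjusted p = 0.181 over all kept probes). With the mean of the probes the call was lost too (adjusted p = 0.0792). Chac1, an enzyme that degrades glutathione, averaged 2.72 ± 0.18 in pre-miR-16 and 2.35 ± 0.13 in pre-miR-Control cultures without overlap, and its change of 0.36 ± 0.13 missed the threshold (adjusted p = 0.0589).

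Trib3, a pseudokinase and standard ATF4 target that feeds back on ATF4, had 2.85, 2.83 and 3.08 in pre-miR-16 cultures, against 2.78, 2.93 and 2.83 in pre-miR-Control cultures. The groups overlapped, and the change was 0.08 ± 0.11 (adjusted p = 0.579), with a 95% interval of -0.18 to 0.33. Its second probe read 0.08 too. The gene named Myd116 in the files, Ppp1r15a, encodes the phosphatase subunit GADD34 that reverses eIF2 phosphorylation. It averaged 1.03 ± 0.07 in pre-miR-16 and 0.43 ± 0.07 in pre-miR-Control cultures, a change of 0.60 ± 0.09 (adjusted p = 0.0028).

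**Figure D2:**
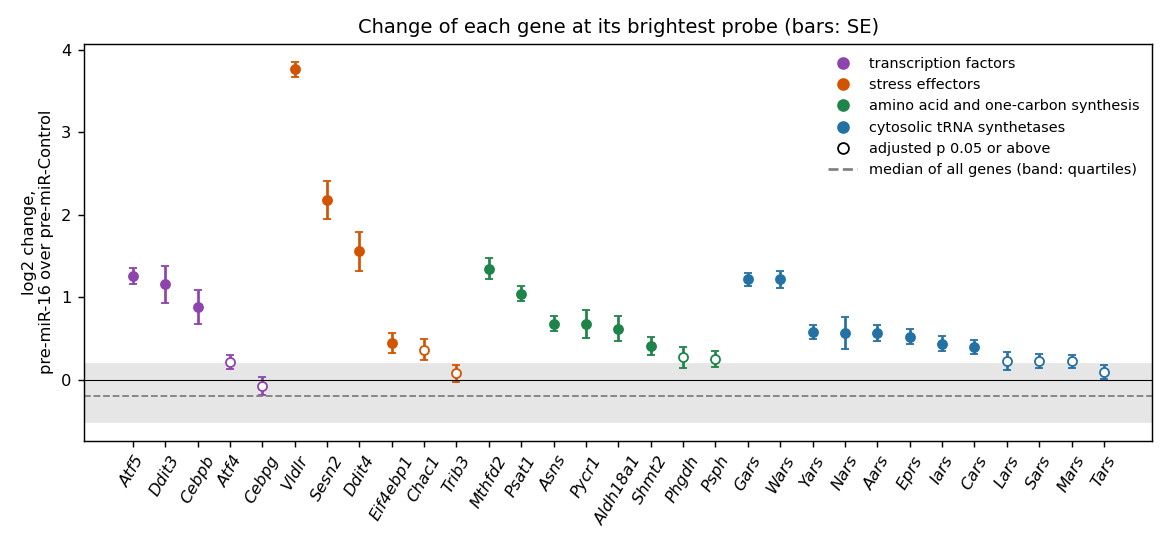
Log2 change, pre-miR-16 over pre-miR-Control, of the 31 genes grouped by role, with bars for the SE. Open symbols are the 10 genes not called, the grey band holds the middle quartiles of all genes tested, and the dashed line is their median of -0.20. All of the 31 genes but Cebpg, Trib3 and Tars lie above the band.

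Of the 8 genes of amino acid and one-carbon synthesis, 6 were higher and 2 were not called, against 15.9% of all genes called higher. Their median change was 0.65. Mthfd2, a mitochondrial enzyme of one-carbon metabolism, had 0.31, 0.12 and -0.09 in pre-miR-16 cultures, against -1.14, -1.25 and -1.31 in pre-miR-Control cultures, a change of 1.34 ± 0.13 (adjusted p = 0.000519). Psat1, the aminotransferase of serine synthesis, had 1.73, 1.78 and 1.63 in pre-miR-16 cultures, against 0.64, 0.75 and 0.62 in pre-miR-Control cultures, a change of 1.04 ± 0.09 (adjusted p = 0.000376). Asns, asparagine synthetase, had 5.60, 5.43 and 5.51 in pre-miR-16 cultures, against 4.90, 4.79 and 4.81 in pre-miR-Control cultures, a change of 0.68 ± 0.09 (adjusted p = 0.00189). For these 3 genes each group held together closely, and every pre-miR-16 culture lay above every control.

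The proline synthesis enzymes Pycr1 and Aldh18a1 rose by 0.68 ± 0.17 (adjusted p = 0.0182) and 0.62 ± 0.15 (adjusted p = 0.016), and Shmt2, the mitochondrial serine hydroxymethyltransferase, by 0.41 ± 0.11 (adjusted p = 0.0208). Each of these 3 calls was lost on leaving out 1 array: Pycr1 without pre-miR-16 replicate 1 (adjusted p = 0.0506), Aldh18a1 without pre-miR-Control replicate 2 (adjusted p = 0.0523), and Shmt2 without pre-miR-Control replicate 2 or 3 (adjusted p up to 0.0739).

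The other 2 enzymes of serine synthesis did not pass the test. Phgdh, the first of the pathway, averaged 4.99 ± 0.18 in pre-miR-16 and 4.72 ± 0.11 in pre-miR-Control cultures, with overlap, and its change of 0.27 ± 0.12 was not called (adjusted p = 0.118). Both of its other probes were called higher, at 0.34 and 0.44. Psph, the last of the pathway, changed by 0.25 ± 0.09 (adjusted p = 0.0654).

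All 12 listed cytosolic tRNA synthetases had positive changes, 8 were called higher, and 11 had groups that did not overlap. Of all 16702 genes 5800 had positive changes, 15.9% were called higher, and 18.9% had pre-miR-16 values above all control values. Gars, which charges glycine tRNA, had 1.53, 1.46 and 1.50 in pre-miR-16 cultures, against 0.28, 0.26 and 0.29 in pre-miR-Control cultures, a change of 1.22 ± 0.08 (adjusted p = 0.000103). The spread within each group was small beside the gap. Wars, which charges tryptophan tRNA and is also known to be induced by interferon gamma, had 2.31, 2.17 and 2.34 in pre-miR-16 cultures, against 1.21, 0.99 and 0.98 in pre-miR-Control cultures, a change of 1.21 ± 0.11 (adjusted p = 0.000391).

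The other 6 called synthetases had changes from 0.40 to 0.58. Yars, for tyrosine, rose by 0.58 ± 0.09 (adjusted p = 0.00284), and Eprs, the fused enzyme for glutamate and proline, by 0.52 ± 0.09 (adjusted p = 0.00441). Aars, for alanine, had 5.50, 5.49 and 5.29 in pre-miR-16 cultures, against 4.92, 4.81 and 4.87 in pre-miR-Control cultures, a change of 0.56 ± 0.10 (adjusted p = 0.005). Cars, for cysteine, rose by 0.40 ± 0.09 (adjusted p = 0.0116), a call lost with the slide as a block (adjusted p = 0.0656) and with median centring (adjusted p = 0.0869), and all 3 of its probes and all 4 of Eprs were called higher.

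Iars, for isoleucine, rose by 0.43 ± 0.09 (adjusted p = 0.0104) at its brightest probe and by 0.60 at a second RefSeq probe. A dimmer probe, annotated to a GenBank cDNA, fell by 0.70 ± 0.17 (adjusted p = 0.0158 over all kept probes), and with the mean of the probes the change was 0.11 and not called. Nars, for asparagine, had 3.28, 2.77 and 3.49 in pre-miR-16 cultures, against 2.69, 2.61 and 2.57 in pre-miR-Control cultures. Replicate 2 lay close to the controls, and the change of 0.56 ± 0.19 was barely called (adjusted p = 0.0491). It was lost on leaving out any one of the other 5 arrays (adjusted p up to 0.132).

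The 4 synthetases not called were Lars (leucine) by 0.23 ± 0.11 (adjusted p = 0.128), Sars (serine) by 0.22 ± 0.08 (adjusted p = 0.0682), Mars (methionine) by 0.22 ± 0.08 (adjusted p = 0.0597) and Tars (threonine) by 0.10 ± 0.09 (adjusted p = 0.383). The 95% interval for Tars ran from -0.11 to 0.30. Tars, which holds the motif in its promoter, had a second probe called higher at 0.37, and Lars had one called higher at 0.50 and one at -0.51 that was not called. The Mars and Ddit3 probes lie 1118 bases apart on chromosome 10, on opposite strands.

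**Figure D3:**
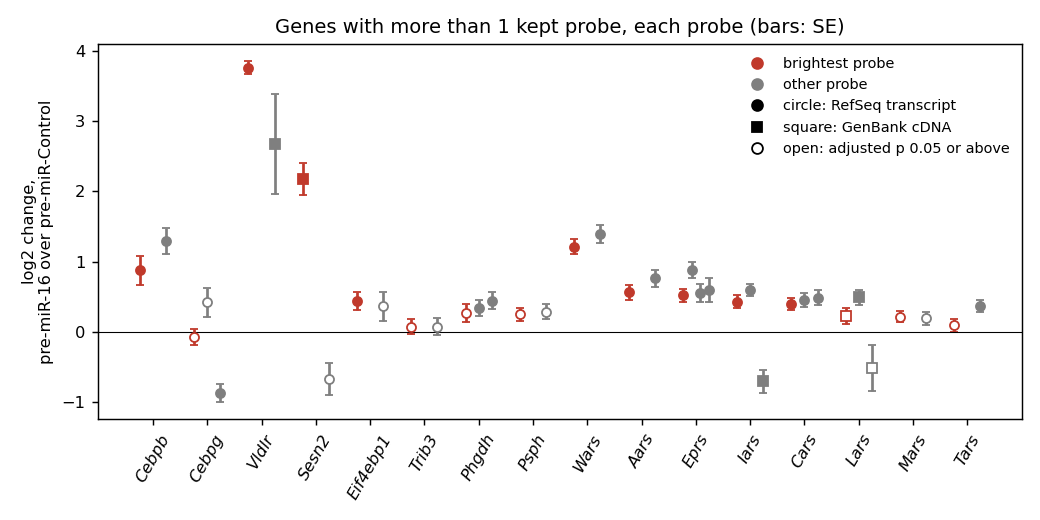
Log2 change, pre-miR-16 over pre-miR-Control, of every kept probe for the 16 genes with more than 1, with the probe used for the gene in red, the others in grey and bars for the SE. All probes of 12 genes share a sign, and Cebpg, Sesn2, Iars and Lars have probes on both sides of 0. The second Vldlr probe clearly exceeded background in only 1 pre-miR-Control culture.

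Set beside each other, the median change was 0.88 for the transcription factors, 1.00 for the stress effectors, 0.65 for amino acid and one-carbon synthesis and 0.48 for the listed synthetases. With the mean of a gene's probes, which averages the 2 opposed Sesn2 probes, the median of the effectors was 0.58 with 3 called, below that of the synthesis genes. Called shares were 3 of 5, 4 of 6, 6 of 8 and 8 of 12, each above the 15.9% of all genes. The difference between synthesis or effector genes and the synthetases was not tested, and their ranges overlapped: effectors ran from 0.08 to 3.76, synthesis genes from 0.25 to 1.34 and synthetases from 0.10 to 1.22.

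The cultures given pre-miR-16 did not carry the groups alike. The median of the synthesis genes relative to the control mean was 0.56, 0.71 and 0.52 in pre-miR-16 replicates 1 to 3, against 0.09, 0.03 and -0.08 in pre-miR-Control replicates 1 to 3. That of the synthetases was 0.48, 0.37 and 0.47 in pre-miR-16, against 0.05, 0.01 and -0.04 in pre-miR-Control replicates. That of the stress effectors was 1.20, 0.70 and 1.13 in pre-miR-16, against -0.02, 0.03 and -0.01 in pre-miR-Control replicates. Replicate 2 was thus highest for the synthesis genes and lowest for the synthetases and effectors. It was the highest pre-miR-16 culture for 5 of 8 synthesis genes and the lowest for 7 of 12 synthetases and 4 of 6 effectors, where over all genes it was highest for 39.6% and lowest for 40.9%. The summed signal of 9 proliferation markers was 33.3, 17.5 and 31.1 in pre-miR-16 replicates 1 to 3, against 22.9, 25.0 and 24.6 in pre-miR-Control replicates, so replicate 2 stood apart there too, and the part of this in the results was not tested.

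**Figure D4:**
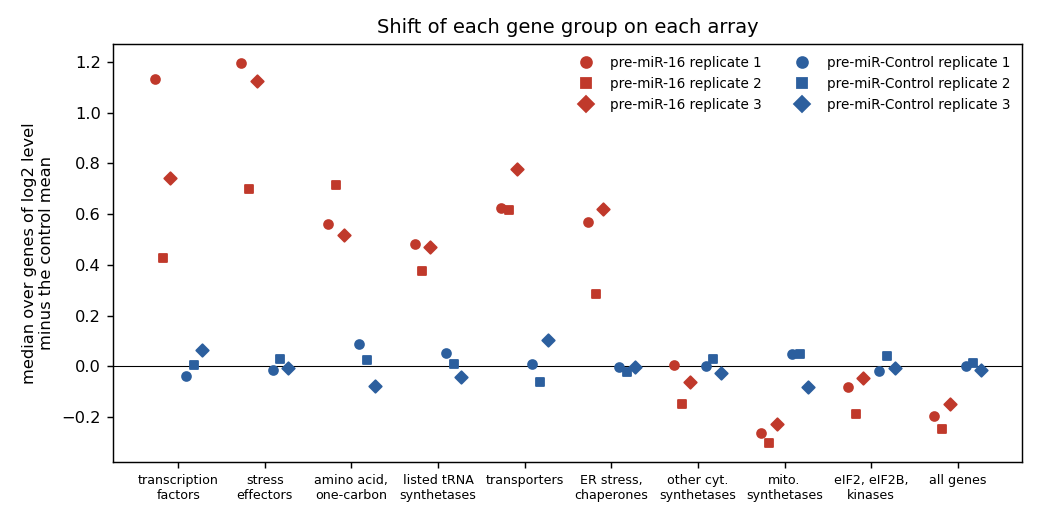
Median over the genes of each group of the log2 level minus the mean of the controls, for each array, pre-miR-16 in red on the left and pre-miR-Control in blue on the right, with the symbol giving the replicate. The 4 groups of ATF4-response genes, the transporters and the ER stress and chaperone genes lie above 0 on all 3 pre-miR-16 arrays. With this scaling the mitochondrial synthetases, the eIF2, eIF2B and kinase genes and all genes lie below 0 there. The other cytosolic synthetases lie on both sides of 0. Replicate 2 is highest for amino acid and one-carbon synthesis and lowest for the transcription factors.

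Synthetases outside the list gave fewer rises than the listed ones, a difference that was not tested. Of 11 other cytosolic synthetases and complex subunits 3 (27.3%) were higher and 2 lower, against 15.9% and 33.2% of all genes. Their median was -0.07. Without pre-miR-Control replicate 2 the counts of higher and lower were 0 and 1. Without pre-miR-16 replicate 1 or 3 or pre-miR-Control replicate 3 there was 1 higher. Farsb (a subunit for phenylalanine) rose by 0.45 ± 0.13 (adjusted p = 0.0324), Hars (histidine) by 0.44 ± 0.10 (adjusted p = 0.0117) and Rars (arginine) by 0.32 ± 0.09 (adjusted p = 0.028). With the mean of its probes Hars stood at 0.062 (adjusted p = 0.708). Dars (aspartate) fell by 0.88 ± 0.09 (adjusted p = 0.000866), and Aimp1, a scaffold of the synthetase complex, fell by 0.35 ± 0.09 (adjusted p = 0.0211). The calls of Farsb, Rars, Hars and Aimp1 were each lost without pre-miR-Control replicate 2 (adjusted p 0.051 to 0.112). Of 15 mitochondrial synthetases 0 were higher and 7 lower, against 33.2% of all genes called lower, with a median of -0.28 against -0.20 over all genes, and in limma 0 were higher and 8 lower at an unadjusted p under 0.05. The count of 7 fell to 1 without pre-miR-Control replicate 2 and to 1 with the slide as a block, and was 4 without pre-miR-Control replicate 3. Of all 16702 genes 3606, 3940 and 4142 were called lower in these settings, against 5544 in the main fit. Without pre-miR-Control replicate 1 there were 1 mitochondrial synthetase called higher and 5 called lower. The lowest p among them were those of Vars2 (-0.72 ± 0.09), Ears2 (-0.47 ± 0.10), Rars2 (-0.41 ± 0.09) and Fars2 (-0.38 ± 0.09).

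The calls of these falls hang on the scaling between arrays. Scaled on the spike-in probes every change moved up by 0.38, so that 0 mitochondrial synthetases were called, at a median of 0.11, and the other cytosolic ones had a median of 0.31 with 4 higher and 0 lower. With that scaling Aimp1 stood at 0.031, Fars2 at 0.0095, Rars2 at -0.03 and Ears2 at -0.09. Dars stayed at -0.50 (adjusted p = 0.0842) and Vars2 at -0.34 (adjusted p = 0.159), neither called. The listed synthetases had a median of 0.86 with 11 of 12 called, and all 31 genes one of 0.95 with 28 called. Of all 16702 genes 3658 were then called higher and 1029 lower, against 2658 and 5544 in the main fit.

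**Figure D5:**
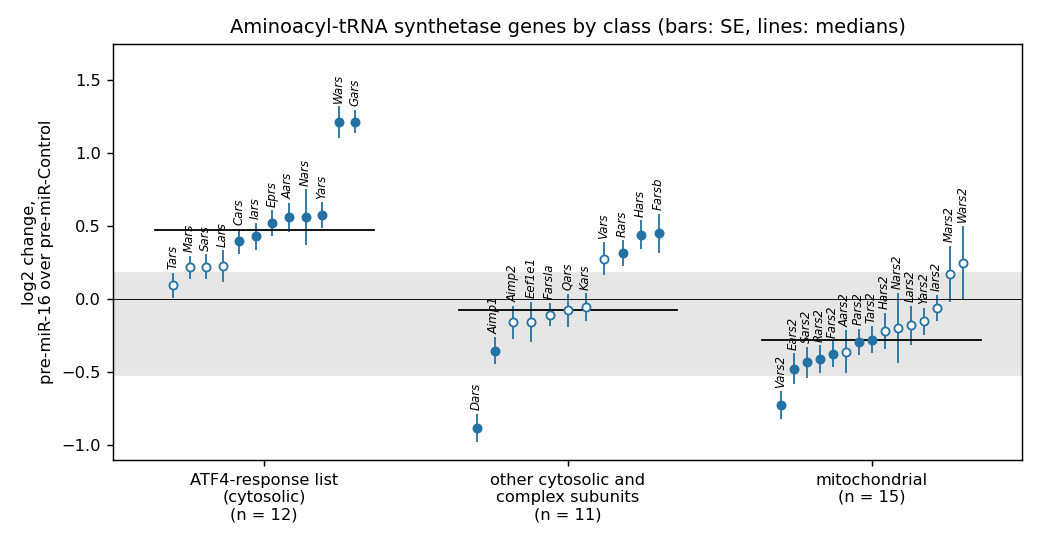
Log2 change, pre-miR-16 over pre-miR-Control, of the tRNA synthetase genes by class, with bars for the SE, black lines at the class medians of 0.48, -0.07 and -0.28, open symbols for genes not called and a grey band for the middle quartiles of all genes tested. Arrays were scaled on the 75th percentile, and scaled on spike-ins all points move up by 0.38, which puts the medians of all 3 classes above 0.

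Genes around the response were counted in the same fit. Of 9 amino acid transporters linked to ATF4, 7 (77.8%) were higher, 0 lower and 2 not called, against 15.9% and 33.2% of all genes. At an unadjusted p under 0.05 in limma 0 were lower too, and the median change was 0.65. Slc7a3, an importer of cationic amino acids, rose by 2.23 ± 0.10 (adjusted p = 2.42e-05). Slc7a5, the large neutral amino acid transporter, rose by 1.82 ± 0.18 (adjusted p = 0.000644) and Slc7a11, the cystine importer, by 1.55 ± 0.19 (adjusted p = 0.00142). The glycine transporter Slc6a9 rose by 1.14 ± 0.10 (adjusted p = 0.000442).

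Of 15 further reported ATF4 targets, which include Slc7a11 again, 10 (66.7%) were higher and 4 lower, against 15.9% and 33.2% of all genes. The hormone Fgf21 rose by 4.58 ± 0.26 (adjusted p = 5.92e-05), Cth (cystathionine gamma-lyase) by 3.98 ± 0.19 (adjusted p = 2.6e-05), Aldh1l2 (mitochondrial folate metabolism) by 3.64 ± 0.14 (adjusted p = 1.51e-05) and the stress protein Nupr1 by 2.63 ± 0.15 (adjusted p = 6.54e-05). Under normexp background correction Fgf21 stood at 3.59, Cth at 3.38 and Aldh1l2 at 2.65. Those that fell were the stress factor Atf3 by 1.34 ± 0.39 (adjusted p = 0.0294), Stc2 by 0.92 ± 0.13 (adjusted p = 0.00254), Shmt1 by 0.63 ± 0.10 (adjusted p = 0.00373) and Gpt2 by 0.59 ± 0.10 (adjusted p = 0.00397). With spike-in scaling 0 of the 15 were called lower, and the call of Atf3 was lost on leaving out any one array other than pre-miR-16 replicate 2 (adjusted p up to 0.0877).

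Of 13 eIF2 kinases, eIF2 and eIF2B genes 2 (15.4%) were higher and 1 lower, against 15.9% and 33.2% of all genes, so the share of rises was that of the background. Eif2ak2, the kinase PKR that senses double-stranded RNA, rose by 0.64 ± 0.14 (adjusted p = 0.0127) and Impact, an inhibitor of the amino acid sensor GCN2, by 0.48 ± 0.10 (adjusted p = 0.0109), while the eIF2B subunit Eif2b5 fell by 0.44 ± 0.10 (adjusted p = 0.0118), a call lost with spike-in scaling, normexp followed by quantile normalization, the replicate block and the slide as a block. Of 13 genes of the XBP1 and ATF6 arms and the chaperones 5 (38.5%) were higher, 0 lower and 8 not called. The shares of all genes were again 15.9% higher and 33.2% lower. At an unadjusted p under 0.05 in limma 8 of the 13 were higher and 0 lower. Hspa5, the chaperone BiP, rose by 1.03 ± 0.10 (adjusted p = 0.000643), Hsp90b1 by 0.79 ± 0.11 (adjusted p = 0.00202), Dnajc3 by 0.70 ± 0.13 (adjusted p = 0.00589), Xbp1 by 0.57 ± 0.09 (adjusted p = 0.00292) and Manf by 0.50 ± 0.13 (adjusted p = 0.0198). The call of Manf was lost on leaving out pre-miR-16 replicate 1 or 3 or pre-miR-Control replicate 1 or 3 (adjusted p up to 0.0639). Without pre-miR-16 replicate 2, 10 of these 13 were called, and 3335 of all 16702 genes were called higher, against 2658 in the main fit.

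Of 10 interferon-induced genes, looked at because of Wars, 6 (60%) were higher and 2 lower, against 15.9% and 33.2% of all genes. Isg15 rose by 3.70 ± 0.23 (adjusted p = 8.95e-05), Ifit1 by 2.80 ± 0.31 (adjusted p = 0.000975), Cxcl10 by 2.92 ± 0.37 (adjusted p = 0.00162) and Irf7 by 1.71 ± 0.18 (adjusted p = 0.000861). Under normexp Ifit1 stood at 1.94 and Cxcl10 at 1.83. The 2 that fell were Psmb9 by 0.90 ± 0.12 (adjusted p = 0.00163) and Irf1 by 0.74 ± 0.22 (adjusted p = 0.0323), the call of Irf1 being lost on leaving out any one array but pre-miR-16 replicate 2 (adjusted p up to 0.0985). Their part in the value of Wars was not tested.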

How the data were processed

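The 6 arrays (3 pre-miR-16, 3 pre-miR-Control) were grouped by their titles. Deposited scanner files hold spot intensity per the file headers, made by the authors with version 9.5.3.1 of Agilent Feature Extraction, which subtracted background and removed trends within the array, with no normalization between arrays. The deposited series matrix holds log2 values of unstated normalization and served as an alternative. There, pre-miR-16 replicates 1 and 2 each match the other's scanner values better (Spearman 0.965 and 0.970) than their own (0.946 and 0.944). Both belong to 1 group, so the comparison of the groups is not affected. Results named by replicate, the pairing by replicate number and the replicate block follow the scanner values as titled.

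The work used R 4.3.3, limma 3.58.1 and the package data.table (version 1.17.8). Control and outlier spots (74 to 113 per array) were dropped, spots of a probe were averaged on the log2 scale, and the array's 75th percentile over its 43379 non-control spots (625 to 909 units) was subtracted. The share of spots well above background was 57.2% to 64.0%, 0 were saturated, and 3 arrays per group limit the precision. Probes were tested if a share of 0.5 or more of their spots exceeded background clearly on all 3 arrays of a group (23827 of 41174 probes), and each gene was tested at its brightest kept probe with lmFit and eBayes. Slide 1 held replicate 1 of both groups, slide 2 held pre-miR-16 replicate 2 and pre-miR-Control replicates 2 and 3, and slide 3 pre-miR-16 replicate 3 only. Each slide was its own scan session.

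Alternatives were other scalings, normexp background correction (offset 50), the matrix values, other filters and probe rules, other variance settings, replicate or slide as a block and leaving out each array. A percentile over probes was added after seeing the data. All listed genes are named, and of each other list up to 4 genes with the smallest p, plus those a count of 5 or fewer needs. One gene of the mitochondrial list is not reported here and is left out of its counts. The genes and lists were chosen with earlier results of these data known. Coordinates of probes are those of the files (mm7), and sequences come from RefSeq (GRCm38.p6). The code was tested on simulated data.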

Additional observations from a re-analysis of the deposited data

How the results depend on the processing

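Over 22 alternative settings, 0 of the 31 genes were called lower in any, and 13 of the 21 called genes kept their call in all: Vldlr, Sesn2, Ddit4, Atf5, Ddit3, Mthfd2, Psat1, Asns, Gars, Wars, Yars, Aars and Eprs. For Sesn2 this does not cover its RefSeq probe, which ran the other way. Of 682 single-gene values, 36 lost and 50 gained a call and 0 of the called changes turned sign. With the slide as a block 14 of the 31 genes were called higher, against 2095 of all 16702 genes. Median centring gave 16, against 2225 of all genes. With no filter on dim probes there were 17, against 2338 of 28783 genes. Quantile normalization gave 27, against 2888 of all genes, and spike-in scaling 28, against 3658. The main fit gave 21, against 2658. Leaving out 1 array at a time gave 17 to 24, against 2109 to 3335 of all genes. Replicate numbers as titled did not pair the cultures (correlations of deviations -0.09, -0.03 and -0.003), and the replicate block gave 17 calls, against 2338 of all genes called higher. With pre-miR-16 replicates 1 and 2 exchanged, their correlations with pre-miR-Control replicates 2 and 1 were 0.02 and 0.06. Of all genes 8202 were called, 32.4% of them higher. Spike-in scaling gave 4687, 78.0% higher, and put Aimp1 at 0.031 and Fars2 at 0.0095. The cause of that shift was not tested. The sources used here do not say how much spike-in each sample received. Signal over background limits the second Vldlr probe, 5 of the leukocyte markers and the fibroblast marker Fap, which were not well above background on all control arrays. The luminal marker Muc1 was not well above background on all pre-miR-16 arrays.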
